A study of Mus musculus with 4 samples.

Results

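Compact bivalent regions are stretches of the genome under 20 kb wide that carried both H3K27me3 and H3K4me3 in both mouse rosette stem cell lines studied, CGR8 and R1. They were chosen by the called regions of all 4 lists: they are the CGR8 H3K27me3 regions of chromosomes 1 to 19 that overlapped, by 1 bp or more, an R1 H3K27me3 region, a CGR8 H3K4me3 region and an R1 H3K4me3 region. Bases 104000001 to 124000000 of chromosome 1 and 3000001 to 3100000 of chromosome 11 were left out. This gave 4616 of the 14575 CGR8 H3K27me3 regions (31.7%), which held 41.6 Mb, or 31.0% of all CGR8 H3K27me3 cover.

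Rosette stem cells are pluripotent cells held in culture past the naive and short of the primed stage. The study made them from embryonic stem cells of CGR8 (strain 129/Ola) and R1 (strain 129), kept for 8 days in N2B27 medium with LIF, 2 µM IWP2, an inhibitor of WNT secretion, and 1 µM PD325901, a MEK inhibitor. Both lines had this treatment, and no untreated culture, input or second culture of a line was analysed here. Chromatin immunoprecipitation with sequencing gave 4 libraries, 1 for each line and mark, so a mean over lines has n = 2. Groups of 2 against 2 cannot go below p = 0.333 in a two-sided exact permutation test, and values were therefore compared without one. No source used here gives read numbers, so depth is unknown, and a region missing from a list is only a region not called. Positions are on build mm9, counted from 1. Scores are those the authors deposited, have no unit, and serve here to describe regions within a list. All values are descriptions of the calls, since the calls of both lines chose the regions.

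H3K27me3 is written by the Polycomb complex PRC2 and is found at genes kept silent. H3K4me3 is written by SET1 and MLL family enzymes and marks promoters, above all those in CpG islands. In embryonic stem cells many promoters of developmental regulators are silent and yet carry both marks, a state called bivalent. The typical bivalent promoter has a short H3K4me3 peak within a wider Polycomb domain. The lists come from bulk cultures, so a region with both marks need not carry them in the same cell, and the name bivalent is used here for the calls alone.

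Of 13624 CGR8 H3K27me3 regions under 20 kb on these chromosomes, 65.1% overlapped R1 H3K27me3, 38.9% overlapped CGR8 H3K4me3 and 38.9% overlapped R1 H3K4me3. All conditions together were met by 33.9%. These shares follow from the rule. In 4517 regions (97.9%) at least 1 base lay in all 4 calls, with a median of 1400 bases per region and 7.11 Mb in all. In the other 99 regions the calls met the CGR8 H3K27me3 region at different places. A single R1 H3K27me3 partner was found for 4387 regions, while 226 had 2 and 3 had 3. The R1 partner with the most shared bases was used for R1 values, and 92 of these partners were 20 kb or wider, so such regions were compact in CGR8 only. The regions are not independent of each other: 147 shared their R1 partner with another one, and 197 shared a CGR8 H3K4me3 region.

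Compact bivalent regions were a few kilobases wide and mostly stood in the upper part of the H3K27me3 lists. Their median H3K27me3 width was 8400 bp in CGR8 and 7400 bp in R1. In CGR8, 10% were 4000 bp or narrower and 10% were 15400 bp or wider. The median H3K27me3 score was 256.8 in CGR8 and 238.5 in R1, at percentile 74.7 of the CGR8 and 73.8 of the R1 list. The CGR8 H3K27me3 score had a median of 822 over the 82 regions within 1 kb under the 20 kb limit and of 823 over the 65 regions within 1 kb above it that met the other conditions. Among regions of equal width, those of highest score are named. The 3 widest regions inside it, all 19.8 kb, lay on chromosome 15 from 85401001 to 85420800 (CGR8 H3K27me3 score 1581), on chromosome 2 from 158428601 to 158448400 (1490) and on chromosome 14 from 33261401 to 33281200 (1397). The 3 just outside it, all 20 kb, lay on chromosome 5 from 75463601 to 75483600 (1844), on chromosome 14 from 33402401 to 33422400 (1396) and on chromosome 10 from 79760401 to 79780400 (1359).

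Most compact bivalent regions held exactly 1 H3K4me3 region. Within the CGR8 bounds this was so for 4128 regions with CGR8 H3K4me3 and 4134 with R1 H3K4me3, a mean of 89.5% ± 0.0919 (SD, n = 2 lines). In CGR8, 419 regions held 2, 61 held 3 and 8 held 4. In R1, 399 held 2, 74 held 3 and 9 held 4. The number was the same in both lines at 4384 regions (95.0%), while 112 held more in CGR8 and 120 more in R1. The highest-scoring H3K4me3 region was also in the same place. It overlapped between lines at 4558 of the 4616 regions, and its midpoint shifted by a median of 100 bp, less than 1 step of the 200 bp grid on which all calls lie. The rule asks for H3K4me3 of both lines at each region, which bears on this agreement in number and place. Other H3K4me3 regions were not set beside it. In the H3K27me3 bounds of each line, exactly 1 H3K4me3 region was held by 89.4% in CGR8 and 86.8% in R1, where 119 partners held none.

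H3K4me3 took up a small part of the H3K27me3 region. It covered a median of 19.6% ± 0.198 of the CGR8 H3K27me3 region (SD, n = 2 lines). In the bounds of each line the median was 19.7% in CGR8 and 21.7% in R1 (4497 partners with R1 H3K4me3). The highest-scoring H3K4me3 region had a median width of 1800 bp in each line. H3K27me3 went on for 1000 bp or more on both sides of all H3K4me3 in 63.1% of regions in CGR8 and 63.2% in R1. Among those, the shorter flank had a median of 0.578 times the length of the longer one in CGR8 and 0.6 times in R1. In the bounds of each line, cover above 50% was found in 337 regions in CGR8 and 345 in R1, or 7.30% and 7.47%. H3K27me3 calls bridge gaps of up to 600 bp, since neighbouring regions were never closer than 800 bp. Among H3K4me3 regions wholly inside H3K27me3, 97.5% in CGR8 and 97.97% in R1 were wider than 600 bp, so most of them could not lie in a bridged gap alone.

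H3K4me3 lay most often in the centre of the H3K27me3 region, with a smaller group at the edges. Position was measured as the midpoint of the highest-scoring H3K4me3 region, from 0 at the first to 1 at the last base of the H3K27me3 region of the same line. The median position was 0.511 in CGR8 and 0.507 in R1. The central zone, positions 0.333 to 0.667, held 50.02% of regions in CGR8 and 53.15% in R1, a mean of 51.6% ± 2.21 (SD, n = 2 lines). The zone before it held 17.9% in CGR8 and 16.3% in R1, and the zone after it 19.2% and 19.01%. The midpoint lay outside the H3K27me3 region in 12.85% of regions in CGR8 and 11.6% in R1. In R1 the 119 regions whose partner held no R1 H3K4me3 have no position, so R1 shares run over 4497 regions. The plot of positions shows a peak in the centre and a low shoulder around each edge in both lines.

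**Figure D1:**
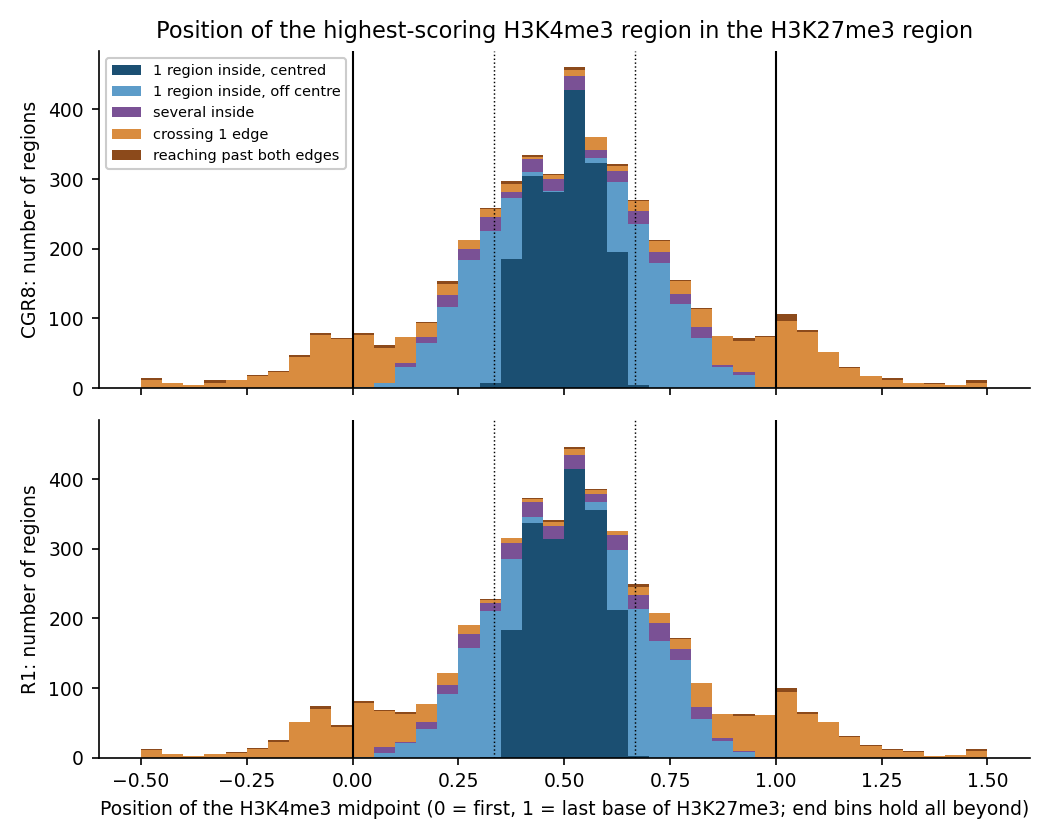
Position of the highest-scoring H3K4me3 region within each compact bivalent region, for CGR8 (above) and R1 (below), with the number of regions per bin on the vertical axis and colours for the arrangement of the marks. Solid lines mark the edges of H3K27me3 and dotted lines the central zone, which held 50.02% of regions in CGR8 and 53.15% in R1, while shoulders of edge-crossing regions surround positions 0 and 1.

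A wide H3K4me3 region can only be centred near the middle of its H3K27me3 region, so its place was also taken relative to the room it had. Of H3K4me3 regions wholly inside, an even spread would put 33.3% in the central zone of that room. In CGR8 that zone held 52.8% of 3520 such regions, and in R1 it held 55.8% of 3485. The outermost parts of the room, 20% of it in all, held 5.99% in CGR8 and 5.68% in R1. The even spread is a geometric yardstick and not a test.

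The arrangements fell into 5 kinds. In CGR8, 1732 regions (37.5%) held 1 H3K4me3 region wholly inside and in the central zone of its room, called centred here, and 1477 (32.0%) held 1 wholly inside but off centre. Several H3K4me3 regions, all inside, were held by 229 (4.96%). H3K4me3 reached past 1 edge of H3K27me3 in 1099 (23.8%) and past both edges in 79 (1.71%). The numbers in R1, in the same order, were 1820, 1344, 266, 1009 and 58.

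Centred regions with like H3K27me3 could differ much in H3K4me3. With a single H3K4me3 region in both lines, 256 regions had a position of 0.45 to 0.55 in each line. The highest H3K27me3 score among them belonged to a region of chromosome 17 whose marks share their bounds, described with the others of that kind. The next 2 in score lay on chromosome 8. The one from 33985401 to 34003000 had H3K27me3 of 17.6 kb in CGR8 and the same bounds in R1, with scores of 1186 and 1094. Its H3K4me3 region was 2.2 kb wide with a score of 642 in CGR8 and 2 kb wide with a score of 901 in R1. The one from 47372601 to 47387600 had similar H3K27me3 scores of 1252 in CGR8 and 1057 in R1. Its H3K4me3 scores were far lower, 74.2 in CGR8 and 171 in R1. These 2 regions thus ranked close together for H3K27me3 and far apart for H3K4me3 in both lines.

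At the edge in both lines, with a position under 0.1 or over 0.9, lay 417 regions with a single H3K4me3 region. On chromosome 4, H3K27me3 ran from 129420601 to 129439000 in CGR8 (18.4 kb, score 878) and from 129420401 to 129439400 in R1 (19 kb, score 818). Its H3K4me3 region began outside, at 129417401 in CGR8 and 129417201 in R1, and covered only 2.17% of the CGR8 and 2.11% of the R1 H3K27me3 region. The H3K4me3 scores there were 2945 in CGR8 and 3047 in R1. On chromosome 6, the region from 51129001 to 51148400 (CGR8 score 1053, R1 score 845) met H3K4me3 only at its first bases. That H3K4me3 region, from 51127601 to 51129200 in CGR8, also touched the end of the neighbouring compact region from 51116801 to 51128000. On chromosome 17, from 56649601 to 56658200, the CGR8 H3K27me3 region was 8.6 kb wide and the R1 partner 17.8 kb, with H3K4me3 at the same end in both lines.

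In the CGR8 bounds, 12 regions held 4 H3K4me3 regions in at least 1 line, and 5 of them held 4 in both. On chromosome 4, from 151489601 to 151508400, H3K27me3 was 18.8 kb wide in CGR8 (score 1380) and 18.6 kb in R1 (score 1473), with 4 H3K4me3 regions in each line and H3K4me3 over 38.3% (CGR8) and 37.6% (R1) of its length. On chromosome 15, from 79330601 to 79348800, H3K27me3 scored 1281 in CGR8 and 1404 in R1, again with 4 in each line. The compact region on chromosome 6 from 51116801 to 51128000 had the same H3K27me3 bounds in both lines, of which H3K4me3 took up 58.9% in CGR8 and 57.1% in R1. The map of called regions shows these 3 beside the centred and the edge examples.

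**Figure D2:**
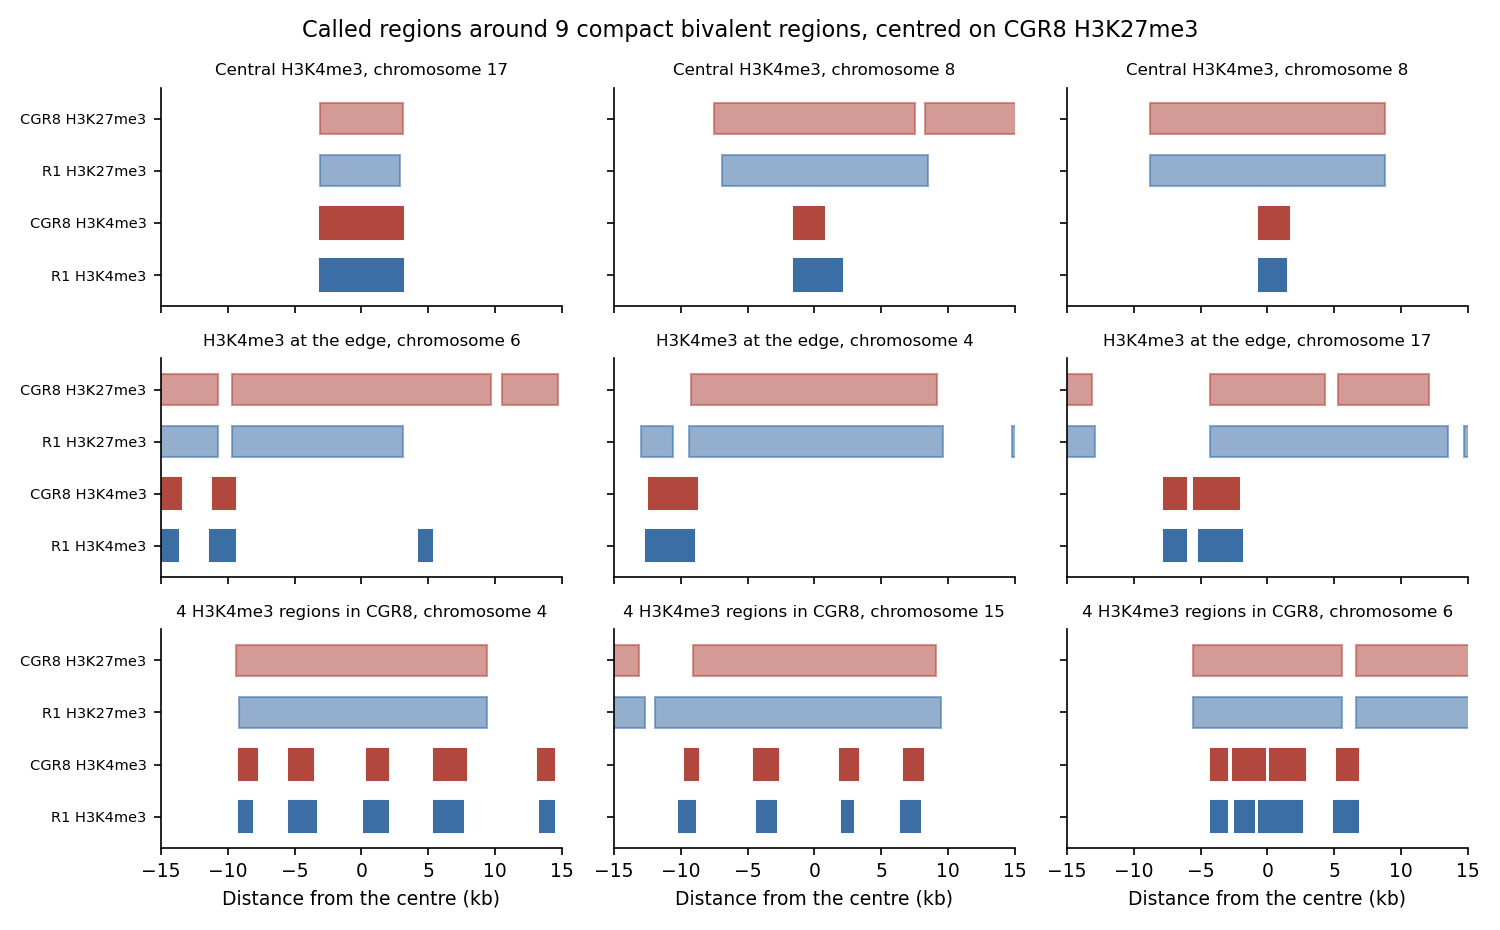
Called regions of both marks in CGR8 (red) and R1 (blue) around 9 compact bivalent regions, with distance from the centre of the CGR8 H3K27me3 region in kb on the horizontal axis and 1 row for each line and mark. The upper row shows regions with the H3K4me3 midpoint in the centre, the middle row H3K4me3 at an edge in both lines, and the lower row regions with 4 H3K4me3 regions in each line. In the chromosome 17 region of the upper row, H3K4me3 covers all of H3K27me3, with the same bounds in CGR8 and 1 end further out in R1.

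Regions with H3K4me3 past an edge differed from those with H3K4me3 inside in both marks. The crossing H3K4me3 was broader and scored higher: in regions crossing 1 edge, its median width was 2600 bp in each line, and the median summed H3K4me3 score was 1154 in CGR8 and 1135 in R1. Centred regions had an H3K4me3 width of 1600 bp in each line and a summed score of 388 (CGR8) or 433 (R1). The H3K27me3 of regions crossing 1 edge was narrower, 5400 bp in CGR8 and 4800 bp in R1, with a score of 152.5 in CGR8 and 144.7 in R1. For centred regions the H3K27me3 width was 9400 bp in CGR8 and 8200 bp in R1, and the score 312 in CGR8 and 281 in R1. The highest median H3K27me3 scores among the 5 kinds belonged to regions with several H3K4me3 regions inside, 622 in CGR8 and 675 in R1. The H3K27me3 score per kb differed less, at 30.7 in CGR8 and 32.1 in R1 for regions crossing 1 edge, against 33.2 in CGR8 and 34.15 in R1 for centred ones.

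**Figure D3:**
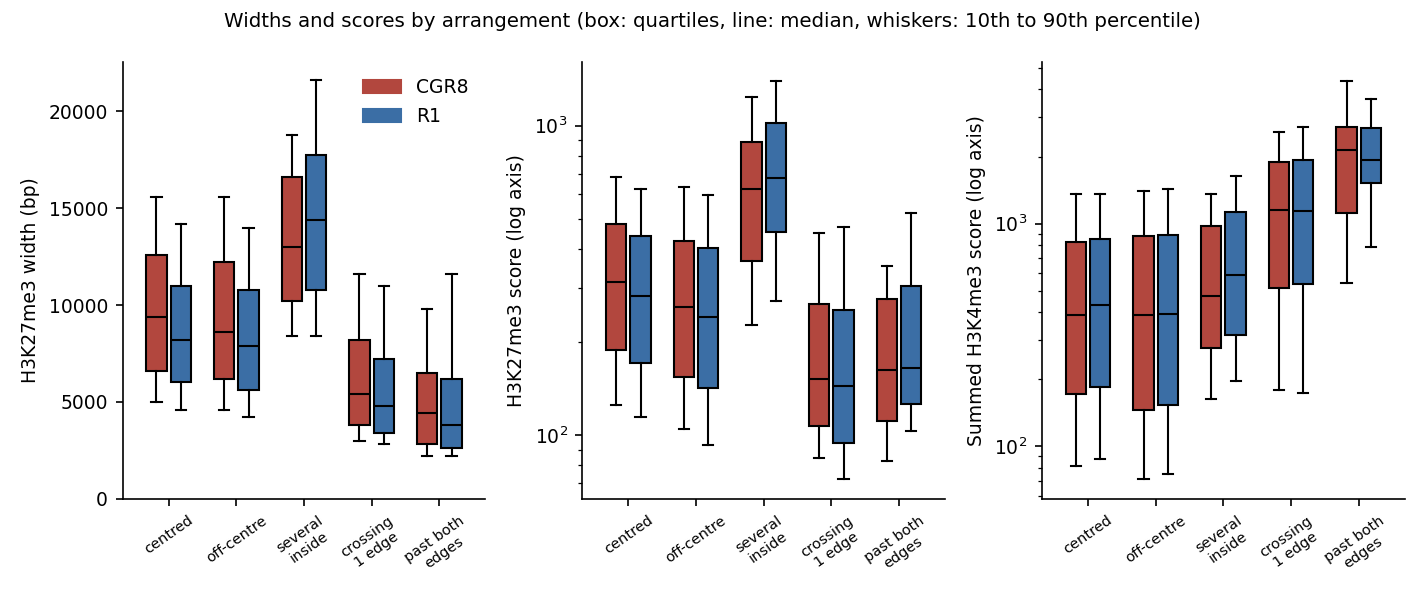
H3K27me3 width (bp), H3K27me3 score and summed H3K4me3 score by arrangement in CGR8 (red) and R1 (blue), with the median as a line, quartiles as the box and the 10th to 90th percentile as whiskers. Regions crossing 1 edge show the narrower H3K27me3 (5400 bp in CGR8, 4800 bp in R1) together with the higher H3K4me3 scores (1154 in CGR8, 1135 in R1).

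Width enters this classification, since a broad H3K4me3 region has less room inside a narrow H3K27me3 region. The difference in H3K4me3 score was also present among regions of like H3K27me3 width, but H3K4me3 width was not matched. From 5 to under 10 kb, the median H3K4me3 width was 2600 bp past an edge and 1600 bp inside in CGR8. In R1 it was 2800 bp past an edge and 1600 bp inside. Score and width of the highest-scoring H3K4me3 region had a rank correlation of 0.73 in CGR8 and 0.75 in R1. From 5 to under 10 kb, the median H3K4me3 score was 1187 for 482 regions past an edge and 358 for 1548 regions with H3K4me3 inside in CGR8. In R1 it was 1363 for 383 regions past an edge and 395 for 1710 with H3K4me3 inside. From 10 to under 15 kb it was 944 past an edge and 468 inside in CGR8, and 1128 past an edge and 546 inside in R1. The H3K27me3 score had no common direction over widths. From 5 to under 10 kb it was lower past an edge, 182 against 219 inside in CGR8 and 190 against 224 inside in R1. From 10 to under 15 kb it was 357 past an edge and 410 inside in CGR8, but 486 past an edge and 426 inside in R1. From 15 to under 20 kb it was 846 past an edge and 643 inside in CGR8, and 704 past an edge and 658 inside in R1, with 38 and 18 regions past an edge.

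A crossing H3K4me3 region can bridge neighbouring H3K27me3 calls. In CGR8, the H3K4me3 region that crossed 1 edge also overlapped another H3K27me3 region in 205 of 1099 cases (18.65%), and in R1 in 168 of 1009 (16.65%). A median of 42.9% of the crossing H3K4me3 region lay inside H3K27me3 in CGR8 and 45.5% in R1. Its whole score nevertheless enters the summed H3K4me3 score.

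The arrangement recurred in the other line, although R1 H3K27me3 was also used to choose the regions. Of the 1099 regions that crossed 1 edge in CGR8, 61.6% did so in R1, against 21.9% of all regions in R1. Of those centred in CGR8, 64.8% were centred in R1, against 39.4% of all. Of those with several H3K4me3 regions inside, 60.3% had several in R1, against 5.76% of all. Of those off centre, 47.7% were off centre in R1, against 29.1% of all, and 35.75% were centred. Of the 79 past both edges, 41.8% were past both in R1, against 1.26% of all. H3K4me3 passed an edge in both lines at 771 regions, with median H3K4me3 scores of 1343 in CGR8 and 1454 in R1. It lay inside in both lines at 3088, with median scores of 389 in CGR8 and 414 in R1.

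Some regions had H3K4me3 past an edge in 1 line and inside in the other, which the H3K27me3 bounds of each line help to set. At 342 regions H3K4me3 crossed an edge in CGR8 and lay inside in R1, and there the median H3K27me3 width was 5800 bp in CGR8 and 8200 bp in R1. At 296 regions with the opposite change it was 7600 bp in CGR8 and 4800 bp in R1. The median H3K4me3 width was 2400 bp in CGR8 and 2000 bp in R1 at the 342 regions, and 1800 bp in CGR8 and 2000 bp in R1 at the 296. In all, 2674 regions (57.9%) had the same arrangement in both lines. Over all compact bivalent regions, the rank correlation of position between lines was 0.68 (n = 4497 regions, description only).

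H3K4me3 lay more often at the edge in narrow H3K27me3 regions and more often in the centre in wider ones. With the regions divided by H3K27me3 width into 5 classes of equal size, the central zone held 30.7% of the narrowest class in CGR8 and 33.1% in R1. It held most in class 4, 59.7% in CGR8 and 62.2% in R1, and 55.9% in CGR8 and 57.6% in R1 in the widest class. H3K4me3 passed an edge in 58.8% of the narrowest class in CGR8 and 57.7% in R1, and in 8.78% of the widest class in CGR8 and 10.2% in R1. The bases of H3K4me3 inside grew little beside the H3K27me3 width. They had a median of 1200 bp in the narrowest class of each line, and of 2000 bp in CGR8 and 2200 bp in R1 in the widest, while the median H3K27me3 widths of these classes were 4000 and 15400 bp in CGR8 and 3600 and 14600 bp in R1. In the bounds of each line, the share covered by H3K4me3 was 34.1% in CGR8 and 35.3% in R1 in the narrowest class, and 12.99% in CGR8 and 15% in R1 in the widest.

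**Figure D4:**
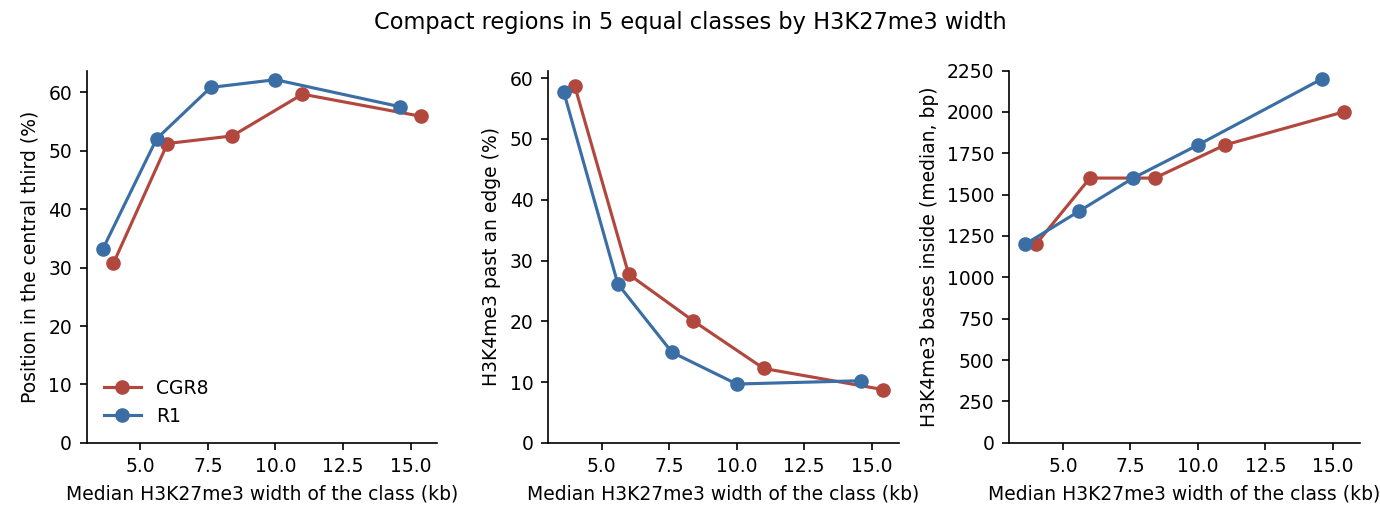
Compact bivalent regions in 5 classes of equal size by H3K27me3 width, with the median width of the class (kb) on the horizontal axis, for CGR8 (red) and R1 (blue). Left, the percentage with H3K4me3 in the central zone; middle, the percentage with H3K4me3 past an edge, 58.8% in CGR8 and 57.7% in R1 in the narrowest class; right, the median bases of H3K4me3 inside.

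Compact bivalent regions were set beside the 606 CGR8 regions of 20 kb or more that met the other conditions. The share with H3K4me3 in the central zone was much the same, 51.6% ± 2.21 in compact and 51.2% ± 3.09 in wide regions (SD, n = 2 lines). The midpoint lay outside H3K27me3 in 12.2% ± 0.908 of compact and 2.71% ± 0.333 of wide ones. Among H3K4me3 regions wholly inside, the central zone of the room held 54.3% ± 2.14 in compact and 48.1% ± 2.97 in wide regions. The number inside differed, with 2 or more H3K4me3 regions in 10.6% ± 0.0306 of compact and 51.5% ± 3.73 of wide ones, counted in the H3K27me3 bounds of each line. H3K4me3 crossed 1 edge in 22.8% ± 1.38 of compact and 8.75% ± 0.700 of wide ones. The differences in number and crossing exceeded the spread between lines, but a wider region has more room for H3K4me3, and width was not matched here. Of the R1 partners of the 606 wide regions, 288 were under 20 kb, and their R1 values enter these means.

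Compact regions with H3K4me3 in both lines but H3K27me3 in 1 line were less central. The central zone held 51.6% ± 2.21 of compact bivalent regions (SD, n = 2 lines), against 27.3% of the 381 regions with H3K27me3 in CGR8 only and 29.5% of the 491 with H3K27me3 in R1 only. Their H3K27me3 regions were also narrower, with medians of 5600 bp for CGR8 only and 3800 bp for R1 only, and scored low, with medians of 89.8 and 76.9. The class of compact bivalent regions nearest in median width had a central share of 51.25% in CGR8 (6000 bp) and of 33.1% in R1 (3600 bp). Against these classes the difference was large in CGR8 and small in R1. The narrowest CGR8 class (4000 bp) had a central share of 30.7%. Among compact bivalent regions, the class of lowest H3K27me3 score had a central share of 33.55% in CGR8 (median score 100.7) and 35.6% in R1 (91.3). Against that class the difference was smaller in CGR8, and none of these differences was tested.

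The scores of the marks were only loosely related. The rank correlation of the H3K27me3 score with the summed H3K4me3 score was 0.07 in CGR8 (n = 4616 regions) and 0.22 in R1 (n = 4497), and it turned to a mean of -0.07 in the higher-scoring 50% of each list. These values describe regions that share a library, and scores grow with region width. The summed H3K4me3 score takes each overlapping H3K4me3 region whole, with any part of it outside H3K27me3. Across regions, H3K27me3 score and width had a rank correlation of 0.77 in CGR8 and 0.79 in R1. With H3K27me3 score per kb, and summed H3K4me3 score per kb of H3K4me3 inside H3K27me3, the correlation was 0.07 in CGR8 and 0.14 in R1. H3K4me3 past an edge kept its whole score in this measure, so the measure does not remove H3K4me3 width.

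Beneath the weak overall relation, H3K27me3 scores were lower at both ends of the H3K4me3 range. With regions divided by H3K4me3 score into 5 classes of equal size, the median H3K27me3 scores in CGR8 were 201, 263, 327, 304 and 214, lowest class first. In R1 they were 155, 250, 305, 312 and 253. H3K4me3 passed an edge in 10.7% of the lowest class in CGR8 and 11% in R1, and in 58.4% of the highest class in CGR8 and 53.4% in R1. The highest class thus consisted largely of edge-crossing regions, which the plot of scores shows in orange.

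**Figure D5:**
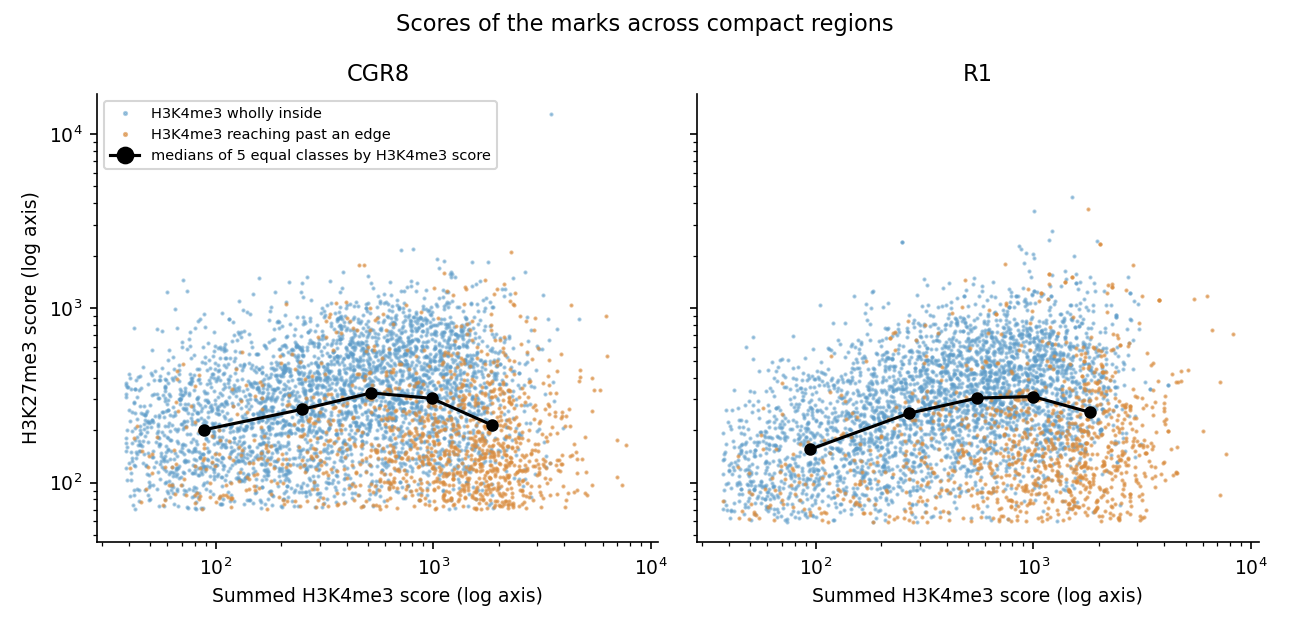
H3K27me3 score against summed H3K4me3 score for each compact bivalent region in CGR8 (left) and R1 (right), both on log axes, coloured by whether H3K4me3 lay wholly inside H3K27me3 (blue) or reached past an edge (orange). Black points are medians of 5 classes by H3K4me3 score, which peak at 327 in CGR8 and 312 in R1 and are lower at both ends.

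The relation depended on the arrangement. Among regions with a single H3K4me3 region wholly inside, the rank correlation of the scores was 0.28 in CGR8 (n = 3209) and 0.42 in R1 (n = 3164). Among regions crossing 1 edge it was 0.02 in CGR8 (n = 1099) and 0.20 in R1 (n = 1009). In single-inside regions of like width it remained above 0. It ranged from 0.16 to 0.28 over 4 width classes in CGR8 and from 0.29 to 0.37 in R1. The H3K27me3 score and the share covered by H3K4me3 had rank correlations of -0.26 in CGR8 and -0.18 in R1, but H3K27me3 width is the denominator of that share and follows the score.

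The 3 highest CGR8 H3K4me3 scores belonged to regions whose CGR8 H3K27me3 scores were below the median of compact bivalent regions, within or beside wide H3K4me3 regions. On chromosome 11 from 120094601 to 120100000, H3K27me3 scored 164 in CGR8 and 378 in R1 and lay wholly within H3K4me3 of 14.2 kb in CGR8 (score 7635) and 13.4 kb in R1 (score 7229). On chromosome 18 from 75521401 to 75525600, H3K27me3 scored 97.5 in CGR8 and 85.3 in R1, beside H3K4me3 with scores of 7391 and 7213. On chromosome 7 from 140316601 to 140322000, H3K27me3 scored 107.4 in CGR8 and 145.5 in R1, beside H3K4me3 with scores of 6956 and 7683. The highest H3K27me3 scores came with H3K4me3 scores above the median as well. The region on chromosome 11 from 33090401 to 33108200 had H3K27me3 scores of 2186 in CGR8 and 2086 in R1 and H3K4me3 scores of 807 and 925, against medians over all compact bivalent regions of 517.9 in CGR8 and 549.9 in R1. The region on chromosome 5 from 28781401 to 28800600 had H3K27me3 scores of 2147 in CGR8 and 2171 in R1 and held 3 H3K4me3 regions in each line.

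A few regions had the same bounds in both marks. The region on chromosome 17 from 39979801 to 39986000 had the highest CGR8 H3K27me3 score of all compact bivalent regions, 13006, and a score of 3715 in R1, where the highest was 4313. Its H3K4me3 region had the same bounds as H3K27me3 in CGR8, with a score of 3484, and differed by 1 grid step at the end in R1, with a score of 1781. On chromosome 2 from 98506201 to 98507600, all 4 calls had the same start and end, with H3K27me3 scores of 777 in CGR8 and 790 in R1. This was also so on chromosome 15 from 74915801 to 74917600, with H3K27me3 scores of 556 in CGR8 and 259 in R1. Bounds were equal between the marks in each line at 6 regions. The chromosome 17 region also had the highest H3K27me3 score per kb, 2098 in CGR8 and 619 in R1. The medians over compact bivalent regions were 31.8 in CGR8 and 32.8 in R1. No input was analysed here, so whether calls with such equal bounds reflect the marks themselves was not tested. Without the regions covered over 90% by CGR8 H3K4me3, 4567 remained and the mean rank correlation of the scores was 0.15.

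Few compact bivalent regions differed by more than 2-fold between lines. Across regions, scores in CGR8 followed those in R1 with a rank correlation of 0.85 for H3K27me3 and 0.96 for summed H3K4me3. Ratios of CGR8 over R1 scores were divided by the median ratio of all regions with a single partner, and compact bivalent regions without one have no ratio here. Of 4080 compact bivalent regions paired in this way, 53 (1.30%) were more than 2-fold higher in CGR8, against 4.53% of all paired regions, and 122 (2.99%) more than 2-fold lower, against 1.99%. Of the 4899 paired H3K4me3 regions that overlapped them, 33 (0.674%) were more than 2-fold higher in CGR8, against 2.36% of all pairs, and 46 (0.939%) lower, against 1.17%. The median H3K27me3 ratio of compact bivalent regions was -0.11 on the log2 scale relative to all pairs. With 1 library per line and mark these counts have no replicate check, and the rule, by asking for calls in both lines, bears on them.

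The line ratios of the marks were weakly related. With the R1 partner that shared most bases, the rank correlation across regions of the CGR8 over R1 ratios of the marks was -0.07 (n = 4497, description only). Over regions with a single H3K27me3 partner in each list it was -0.13 (n = 4005). The largest H3K27me3 ratio was found on chromosome 14 from 21892201 to 21907600, with H3K27me3 of 15.4 kb and a score of 312 in CGR8 and of 4 kb and a score of 75.6 in R1, where the partner held no R1 H3K4me3. On chromosome 7 from 70586001 to 70596800, H3K27me3 was 10.8 kb wide with a score of 251 in CGR8 and 1.8 kb with a score of 62.4 in R1. That R1 score was at percentile 5.48, near the lowest of the R1 list, 59.4. H3K4me3 there scored 927 in CGR8 and 1045 in R1. On chromosome 10 from 67364801 to 67380200, H3K27me3 was 15.4 kb wide with a score of 439 in CGR8 and 4.2 kb with a score of 112 in R1. H3K4me3 there scored 762 in CGR8 and 856 in R1. These regions thus differed in the reach of H3K27me3, and scores grow with width.

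The smallest ratios were at regions wider in R1. On chromosome 19, H3K27me3 ran from 7488401 to 7491800 in CGR8 with a score of 87.3 and from 7487401 to 7500000 in R1 with a score of 345.5, with H3K4me3 scores of 4160 and 3424. On chromosome 11, from 74428001 to 74435800, H3K27me3 scored 149 in CGR8 and 498 in R1, with H3K4me3 scores of 737 and 1022. On chromosome 4, from 138009601 to 138014200, H3K27me3 scored 105 in CGR8 and 343 in R1, with H3K4me3 scores of 3422 and 2089. Such regions differed in the reach of H3K27me3, which was 3.4 kb in CGR8 and 12.6 kb in R1 at the first of them.

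Counted in bp, and not relative to width, the edges of H3K27me3 calls shifted more between lines than those of H3K4me3. Median widths were 8400 bp in CGR8 and 7400 bp in R1 for H3K27me3, and 1800 bp in each line for the highest-scoring H3K4me3 region. The start and the end of H3K27me3 each shifted by a median of 800 bp. The start and the end of the highest-scoring H3K4me3 region each shifted by a median of 200 bp, over the 4558 regions where it overlapped between lines. The calls of the marks were joined over unlike gaps: neighbouring regions were never closer than 800 bp for H3K27me3 and 400 bp for H3K4me3. How far this enters the larger shift of H3K27me3 was not tested. The R1 call was slightly shorter at both ends, with a median of 200 bp lost at the start and 200 bp at the end. H3K27me3 was wider in CGR8 at 2692 regions, wider in R1 at 1685 and equal at 239. Of the bases in either call, a median of 75% lay in both.

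Compact bivalent regions were spread over all 19 chromosomes, and some lay in close runs. The median distance to the next one was 207200 bp, and 949 of 4597 gaps (20.6%) were under 50 kb. With gaps under 50 kb joined, 3003 regions stood alone, 494 runs held 2 and 170 runs held 3 or more. The longest run held 12 regions on chromosome 8, from 73975401 to 74221200. Their CGR8 H3K27me3 widths ran from 2.8 to 14.4 kb and their scores from 106 to 1074. In R1, 2 pairs of them were each joined into a single H3K27me3 region, from 74058601 to 74065600 and from 74202601 to 74221200. H3K4me3 positions under 0.1 or over 0.9 were found at 9 of the 12 regions in CGR8 and at 4 of the 11 with a position in R1, against 19.7% of all compact bivalent regions in CGR8 and 18.3% in R1. This count was chosen after its values were seen. The 2 pairs joined in R1 each shared their highest-scoring CGR8 H3K4me3 region, from 74059601 to 74062400 and from 74209401 to 74212400. Each of these H3K4me3 regions thus entered the CGR8 count 2 times, while the R1 positions were 0.37 and 0.39.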

How the data were processed

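H3K27me3 and H3K4me3 were measured by chromatin immunoprecipitation with sequencing in rosette stem cells of CGR8 and R1, with 1 library per line and mark. The authors deposited 1 list of called regions per library, with a score per region that has no stated formula. Bowtie2 2.0.2, SICER 1.1, a caller of broad regions, and bedtools 2.20.1 with build mm9 are named per the submitters' processing notes. Settings, a threshold or a control library are not stated in what was used here. For H3K27me3, the protocol and the sample characteristics name different antibody suppliers.

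Overlap meant 1 bp or more. The summed H3K4me3 score adds the full scores of all H3K4me3 regions that overlap, also where they reach outside H3K27me3. H3K4me3 position and arrangement were taken in the H3K27me3 bounds of the same line, using the R1 region that shared most bases as partner, while number and cover were counted in the CGR8 bounds unless stated otherwise. For ratios between lines, regions with a single partner in each list were used. Correlations are Spearman's, across regions, without a p. The number of regions, the centred, off-centre and crossing 1 edge kinds and the rank correlation of the scores were checked on simulated lists. The number inside, the cover, the other kinds and the line ratios were not. Computation used Python 3.11.15, numpy 2.4.6, pandas 2.3.3, scipy 1.17.1 and matplotlib 3.10.9.

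The members, lists and rules were chosen with earlier results of these data known. Named regions were, by rule, the 3 at the extreme of number, score, cover, width and line ratio, the 3 highest-scoring centre and edge examples, and the longest run. Alternatives changed the overlap, score, width limit, base list, merging, position measure and fold, and left out each line. No mm9 annotation was used, so no genes are named, and the published comparison with other stem cell states was not analysed here.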

Additional observations from a re-analysis of the deposited data

How the results depend on the processing

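Of 59 alternative values, 35 kept the main value within the spread between lines (counts within 1.5 times), 23 moved further and 1 changed sign. With 2 lines, a value that leaves out 1 line always lies within this spread, so those values were kept by arithmetic. Merging H3K4me3 regions does not alter H3K27me3 scores, so it bears little on the count past 2-fold. The 35 thus partly reflects the settings chosen. Leaving out 1 line gave 89.43 to 89.56% of regions with exactly 1 H3K4me3 region, 50.02 to 53.15% in the central zone, 19.44 to 19.73% median cover, and a rank correlation of the scores of 0.06912 to 0.2213. For the share with exactly 1 and the cover, both lines were counted in the same CGR8 H3K27me3 bounds and lie close together. Small moves therefore exceed their spread, which leaves out differences in the H3K27me3 calls. In the bounds of each line the SD was 1.854 for the share and 1.373 for the cover. The correlation differed widely between lines. Asking for 50% overlap of the shorter region gave 91.67% with 1 H3K4me3 region, 59.17% central, 19.95% cover and a correlation of 0.2619. The higher-scoring 50% of each list gave 2054 regions, 96.88% with 1, 54.73% central, 20.14% cover, 49 regions past 2-fold (175 in the full lists) and a correlation of -0.07435. The cause was not tested. A width limit of 10000 bp gave 2890 regions, 92.92% with 1, 46.82% central and 24.5% cover. The R1 list as the base gave 89.96% with 1 and 21.53% cover. The share with 1 was 91.32% with H3K4me3 regions less than 1000 bp apart merged and 89.67% without chromosome 8. The mean over lines was 88.12% with R1 counted in the bounds of the R1 partner and CGR8 in its own. The central share was 58.04% with the midpoint of all H3K4me3 bases and 68.16% for a single H3K4me3 region wholly inside, for which the correlation was 0.3502. At 1.5-fold 728 regions differed between lines, and at 3-fold 13. Leaving out chromosome 8 or regions covered over 90% by CGR8 H3K4me3, the R1 positions in CGR8 bounds and the correlation for single inside regions were added after seeing the data. No paired analysis was possible because the results come from no test. Relations between the marks were computed within each line. Depth is unknown, so a region not called in 1 list may still carry the mark.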

Other observations

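The share of CGR8 H3K27me3 regions that were compact bivalent varied over chromosomes, with the lowest on chromosome 8, 256 of 1067 regions (24.0%), and the highest on chromosome 7, 344 of 893 (38.5%). The median H3K27me3 line ratio of compact bivalent regions, CGR8 over R1 on the log2 scale relative to all pairs, was -0.02 on chromosome 8 and -0.23 on chromosome 11. Chromosomes were picked here after their values were seen, and the differences between them were not tested.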
